A study of Mus musculus with 12 samples.

Results

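The hnRNP genes and the genes of core splicing factors were followed in retinal cells of newborn wild-type and conditional Ezh2 knockout mice. Members were every gene whose symbol begins with Hnrnp, or is Srsf, Sf3a, Sf3b or Snrp followed by its subunit name, in both deposited tables. Snrpn, which is imprinted and sits in its own locus, was left out. This gave 50 of 38720 genes, made up of 20 Hnrnp, 11 Srsf, 8 Sf3 and 11 Snrp genes. All 50 passed the filter on low values in both cell fractions. The choice used gene names and no measured value.

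Introns are removed from new transcripts by the spliceosome, which is assembled from small nuclear ribonucleoproteins (snRNPs). Snrp genes encode the Sm ring that snRNPs share and proteins particular to the U1 and U2 snRNPs, and Sf3a and Sf3b genes encode the U2 subunits that hold the branch point. SR proteins (Srsf genes) bind exonic sequences and mostly favour the use of nearby splice sites, whereas hnRNPs coat new transcripts and often oppose it. Neurons are known for extensive alternative splicing, and the balance of SR proteins and hnRNPs is one of its determinants.

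Poly-A RNA was sequenced from retinas of C57/BL6 mice at postnatal day 0 (P0). Retinal cells were split with magnetic beads against CD90 (Thy-1) into a bound fraction, called RGCs (retinal ganglion cells), and the unbound remainder, called non-RGCs. mKO mice carried floxed Ezh2 and Cre recombinase driven by Math5, a gene of the RGC lineage, and controls were labelled wild type (WT). There were 3 libraries in each of 4 groups (mKO RGC, WT RGC, mKO non-RGC and WT non-RGC), from independent RNA extractions. Whether the WT mice carried the floxed allele is not given in the labels. Per the study's text Math5-Cre acts in only a part of RGCs and in a small share of other retinal cells. p-values measure the spread between these extractions. In bulk RNA, fewer cells of a type and less RNA per cell cannot be told apart.

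Reads assigned to genes ranged from 7139633 to 13014004 per library. Libraries are lettered A to C from the deepest to the shallowest in each group, and the letters do not match libraries between groups. Some libraries stood apart from their group. WT RGC library C held the highest value of its group for 48 of the 50 members. In mKO non-RGCs, library C, the shallowest of the 12, held the highest value for 49 of 50 and library A the lowest for 48 of 50. Ezh2 itself was read at 1354, 1476 and 1443 normalised read counts in mKO RGCs and at 1189.9, 1206 and 1678 in WT RGCs, and the groups overlapped. In non-RGCs it was read at 1889.5, 2107 and 2509 in mKO and 2115, 2149 and 1683 in WT. These counts cover the whole gene, and reads over the floxed exons cannot be separated in them, so they do not check the labels. The paper reports less Ezh2 in mKO RGCs by RNA-seq, qPCR and Western blot, a fall that these counts do not show. The reason was not tested. The 12 RGC markers were all higher in WT RGCs than in WT non-RGCs. The summed level of the 12 was 23068 to 23852 in mKO RGCs against 30440 to 34581 in WT RGCs, and 6275 to 8390.1 in mKO non-RGCs against 5709 to 6129 in WT non-RGCs. In mKO against WT, 10 of the 12 were lower in RGCs, and 8 were higher in non-RGCs, beside 4.18% of all genes higher there. The 5 blood markers were all higher in mKO than in WT in both fractions, with sums of 274 to 338 against 117 to 128 in RGCs. The 10 progenitor markers summed to 15266 to 16547 in mKO RGCs and to 16437 to 25370 in WT RGCs, and 4 of them were lower in mKO. Of the other lists, 4 of 10 photoreceptor and 4 of 8 amacrine and horizontal genes were lower in mKO RGCs. So were 2 of 7 astrocyte and Mueller and 1 of 8 endothelial and pericyte genes tested. In the same contrast 3 of 4 retinal pigment epithelium genes tested were higher, and of 6 microglia genes none passed. Over all genes tested in RGCs, 21.2% were lower and 16.3% higher in mKO. The part of cell makeup in the results below was not tested.

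Promoters were matched by symbol for 44 of the 50 members (RefSeq, GRCm38.p6; not matched were Hnrnpll, Hnrnpul2, Sf3b4, Sf3b5, Snrpb and Snrpd1), in windows from 250 bases before to 50 bases after the start of the gene. A few are shown, from 250 bases before the start to 20 bases after it, and were picked after their values were seen. Sf3a1 and Sf3b2 are a pair of members that fell in mKO RGCs and hold the same motif. Srsf10 is the member that rose, and Srsf12 is the member most enriched in RGCs. Capitals mark the motif CCGGAAGT, the core of many ETS factor sites, searched on both strands.
Sf3a1 (chr11:4160104-4160373, plus strand): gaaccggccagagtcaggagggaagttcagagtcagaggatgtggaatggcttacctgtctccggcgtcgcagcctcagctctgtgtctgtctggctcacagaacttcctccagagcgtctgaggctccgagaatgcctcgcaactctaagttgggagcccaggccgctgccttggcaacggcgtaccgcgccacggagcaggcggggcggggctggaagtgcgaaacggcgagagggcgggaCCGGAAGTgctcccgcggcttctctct
Sf3b2 (chr19:5295438-5295707, minus strand): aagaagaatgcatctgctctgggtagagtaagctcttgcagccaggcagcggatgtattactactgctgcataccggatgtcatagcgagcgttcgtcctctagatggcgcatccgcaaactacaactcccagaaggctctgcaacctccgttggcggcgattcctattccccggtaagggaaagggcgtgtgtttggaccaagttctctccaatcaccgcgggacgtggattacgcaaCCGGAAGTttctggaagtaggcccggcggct
Srsf10 (chr4:135855821-135856090, plus strand): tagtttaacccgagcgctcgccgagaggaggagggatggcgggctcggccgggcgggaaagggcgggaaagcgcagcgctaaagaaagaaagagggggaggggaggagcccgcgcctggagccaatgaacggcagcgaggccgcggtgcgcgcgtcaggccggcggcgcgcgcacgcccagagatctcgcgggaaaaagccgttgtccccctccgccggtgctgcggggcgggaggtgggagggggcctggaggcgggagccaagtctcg
Srsf12 (chr4:33209022-33209291, plus strand): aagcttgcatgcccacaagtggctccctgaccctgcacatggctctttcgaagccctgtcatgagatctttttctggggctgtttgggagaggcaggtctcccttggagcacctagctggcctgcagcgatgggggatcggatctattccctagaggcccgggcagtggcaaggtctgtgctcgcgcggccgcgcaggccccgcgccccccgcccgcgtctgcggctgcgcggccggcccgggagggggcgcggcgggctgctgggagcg

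One window was counted for each gene, the first listed, although some genes have several starts. The motif was present in these windows for 8 of 44 members (18.2%), which were Hnrnpd, Hnrnpf, Sf3a1, Sf3a3, Sf3b2, Snrpe, Srsf4 and Srsf5. Srsf11 holds it at another listed start. It was present in 7.41% of the windows of genes tested in RGCs and in 4% of all windows. Of these 8 members, 4 fell in mKO RGCs, beside 27 of all 50 members and 21.2% of all genes tested. The letters TATAAA were present in 13.6% of member windows in 7.18% of those of genes tested and in 14.2% of all windows. Member windows held a median of 25.5 CpG dinucleotides, against 20 in genes tested. A match is a description of letters and does not show binding.

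In RGCs, most of these genes were lower in mKO than in WT, by modest amounts. Of 50 members, 27 fell and 1 rose (limma on log2 values with a pseudocount of 1, Benjamini-Hochberg adjusted p under 0.05 over 16085 genes). Of all genes tested, 21.2% fell and 16.3% rose. The median log2 fold change of the members was -0.25, beside -0.0024 over all genes. All mKO libraries were below all WT libraries for 31 members and above them for 2, beside 28.2% and 24.8% of all genes. At a fold change of at least 1.5 and an unadjusted p under 0.05, 7 members fell and none rose, beside 6.22% of all genes that fell. Without WT RGC library C, 28 members fell and 2 rose at the adjusted p, beside 27.7% and 23.2% of all genes. In that fit 2 fell at 1.5-fold and an unadjusted p under 0.05, beside 6.41%. Scaled to total reads, 17 fell and 2 rose, beside 13.9% and 23.9% of all genes.

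**Figure D1:**
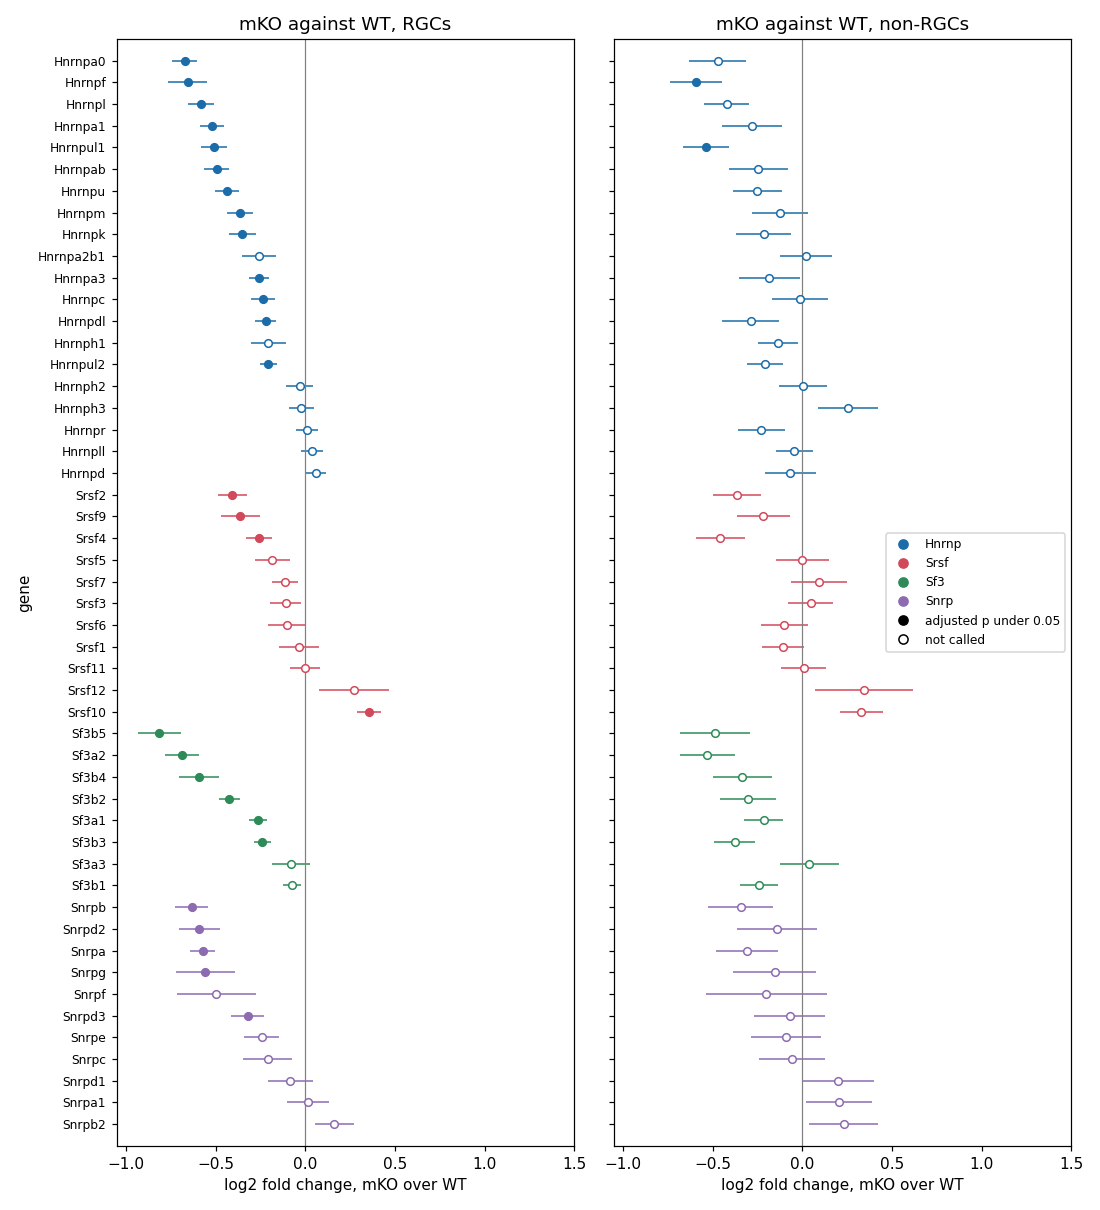
Log2 fold change of mKO over WT for each of the 50 members (rows, grouped by family) in RGCs (left) and non-RGCs (right), with bars of 1 standard error and filled points at an adjusted p under 0.05. In RGCs 27 filled points lie below 0 and 1 above it, and in non-RGCs 2 lie below 0.

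Among the U2 subunits, 6 of 8 Sf3 genes fell in mKO RGCs. Sf3b5, a small subunit of the SF3b complex, was read at 295, 325 and 281 normalised read counts in mKO and at 468, 510.2 and 616 in WT. The groups were apart, and its log2 fold change of -0.81 ± 0.12 (SE; adjusted p = 0.00256) was the largest fall of any member in RGCs. Sf3a2, a subunit of SF3a, was read at 746, 742 and 713 in mKO and 1130.1, 1067 and 1370.1 in WT, with a log2 fold change of -0.69 ± 0.10 (adjusted p = 0.0022). Again no mKO library reached a WT library. Sf3b4, which contacts the pre-mRNA near the branch point, was read at 342, 369 and 349 in mKO and 476, 513 and 619.7 in WT (log2 fold change -0.59 ± 0.11, adjusted p = 0.00608). Sf3b2 had the highest level per kilobase of transcript in the family, 1042 in WT RGCs, and was read at 2510.3, 2647 and 2589 in mKO and 3329, 3388 and 3686 in WT (log2 fold change -0.42 ± 0.06, adjusted p = 0.00197). Sf3a1 (-0.26 ± 0.05) and Sf3b3 (-0.24 ± 0.05) also fell. Sf3b1, the large subunit that clamps the branch point helix, and Sf3a3 had log2 fold changes of -0.07 ± 0.05 and -0.08 ± 0.11 and did not pass the test.

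Among snRNP proteins, 5 of 11 Snrp genes fell in mKO RGCs. Snrpb, which encodes the Sm B proteins and had the highest level per kilobase of its family (1076 in WT RGCs), was read at 811, 846 and 828 in mKO and 1192, 1205 and 1478 in WT. Its log2 fold change was -0.63 ± 0.09 (adjusted p = 0.00236). Snrpd2, another subunit of the Sm ring, was read at 225, 252 and 231 in mKO and 316, 353 and 403 in WT (log2 fold change -0.59 ± 0.12, adjusted p = 0.00749). For both genes the mKO libraries lay close together below all WT libraries. Snrpd3 and Snrpg, of the same ring, and Snrpa, a protein of the U1 snRNP, fell as well. Snrpd1, Snrpe and Snrpf of the ring and Snrpc of the U1 snRNP did not pass the test, with log2 fold changes from -0.50 to -0.08. The U2 proteins Snrpa1 and Snrpb2 were on the other side of 0, at 0.02 ± 0.12 and 0.16 ± 0.11, and did not pass either. All 11 Snrp genes were negative when the GC trend was removed, and when the trend on reads per base was removed as well. Snrpa1 was among the 3 well-read members with the smallest differences, at 544, 566 and 554 in mKO and 504, 497 and 659 in WT.

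Among hnRNPs, 13 of 20 fell in mKO RGCs and none rose. Hnrnpa0, which binds AU-rich elements, was read at 2292, 2384 and 2334 in mKO and 3469.5, 3641 and 4079 in WT (log2 fold change -0.67 ± 0.07, adjusted p = 0.000866). Hnrnpf, which binds runs of G, was read at 292, 291 and 291 in mKO and 412, 443 and 533 in WT (log2 fold change -0.66 ± 0.11, adjusted p = 0.00411). Hnrnpl, which binds CA repeats, was read at 2458, 2473 and 2647 in mKO and 3658, 3543 and 4148 in WT (log2 fold change -0.58 ± 0.07, adjusted p = 0.00145). In all 3 genes the groups were apart. The others that fell were Hnrnpa1, Hnrnpa3, Hnrnpab, Hnrnpc, Hnrnpdl, Hnrnpk, Hnrnpm, Hnrnpu, Hnrnpul1 and Hnrnpul2. Hnrnpa2b1, known for its role in RNA transport, had the highest level per kilobase of transcript among hnRNPs (1768 in WT RGCs). That transcript has 1728 bases, against 6584 exon bases for the gene, so the rank depends on the length used. Hnrnpa2b1 was read at 2456, 2699.8 and 2733 in mKO and 2938, 2920.3 and 3622 in WT. Its log2 fold change of -0.26 ± 0.10 did not pass (adjusted p = 0.0711). Hnrnpr, which binds axonal mRNAs in neurons, was among the smallest differences, at 1789, 1865 and 1901 in mKO and 1738, 1838 and 1951 in WT (log2 fold change 0.01 ± 0.06). Hnrnpd, Hnrnph1, Hnrnph2, Hnrnph3 and Hnrnpll did not pass, at log2 fold changes from -0.21 to 0.06.

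Among SR proteins, 3 of 11 fell in mKO RGCs (Srsf2, Srsf4 and Srsf9) and 1 rose. The gene that rose was Srsf10, whose product represses splicing when dephosphorylated. It is named after its values were seen. Srsf10 was read at 1569.7, 1588 and 1579 in mKO and 1182, 1183 and 1343 in WT, and the groups were apart (log2 fold change 0.36 ± 0.07, adjusted p = 0.00587), although the direction turned when the GC trend was removed. Srsf5 had the highest level per kilobase of the family (1120.2 in WT RGCs) and was read at 1452, 1644 and 1691 in mKO and 1779.8, 1628 and 2040.0 in WT, which overlapped. Srsf11 had the smallest difference of all members, with 2034, 2179 and 2381 in mKO and 2176, 2024 and 2396 in WT. Srsf1, Srsf3, Srsf6 and Srsf7 did not pass, at log2 fold changes from -0.11 to -0.03.

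**Figure D2:**
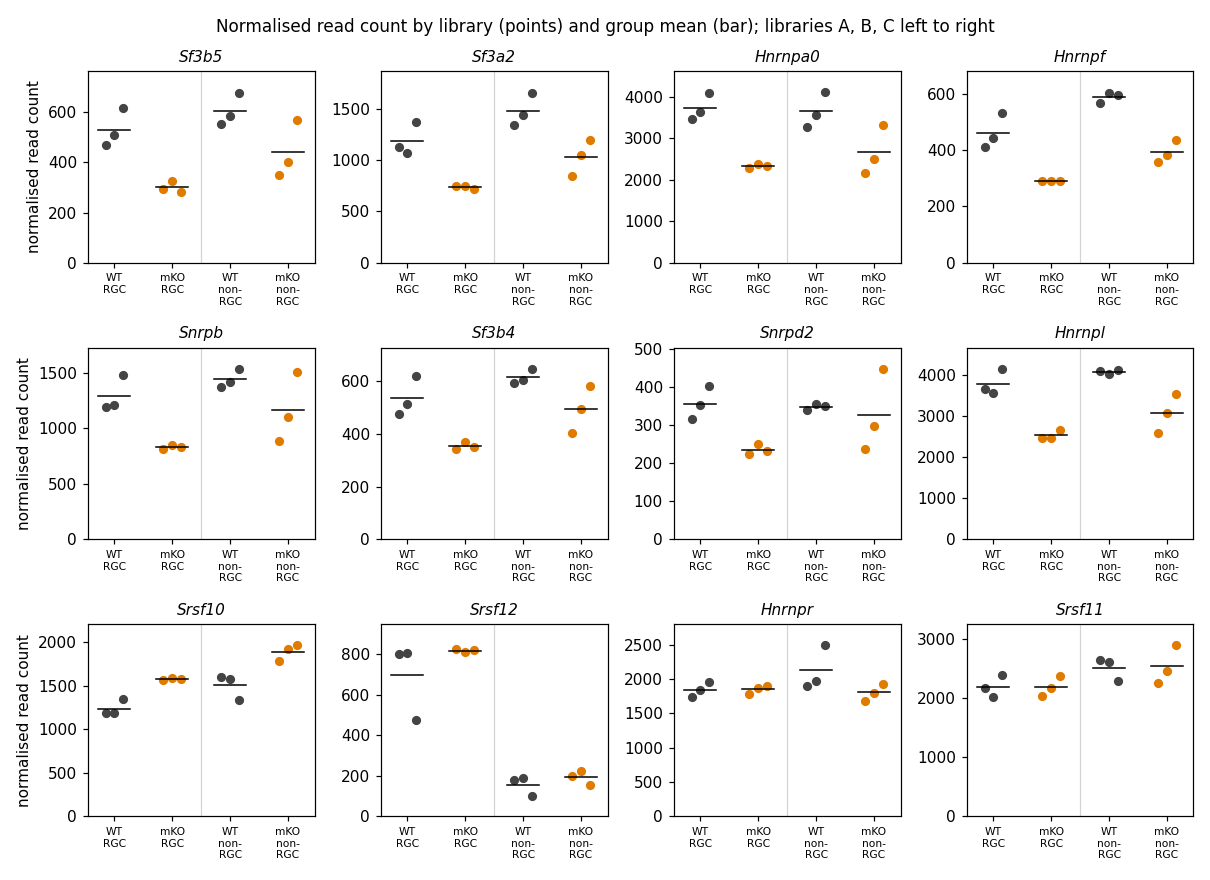
Normalised read count (vertical axis, from 0) of 12 members in each library (points, libraries A to C from left to right) with the group mean (bar). RGC and non-RGC libraries were scaled separately, so levels are compared only within a fraction. In RGCs the mKO points lie below all WT points for the first 8 genes and above them for Srsf10 and Srsf12.

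Summed over a family, every mKO RGC library lay below every WT RGC library for Hnrnp genes (38199 to 40212 against 46495 to 53300 normalised read counts), Sf3 genes (12768 to 13056 against 15152 to 16753) and Snrp genes (4171 to 4406 against 4945 to 6111). Srsf genes overlapped, at 16035 to 17175 against 16482 to 19647. In non-RGCs the ranges of mKO and WT overlapped for each of the 4 families, as for Hnrnp genes at 38729 to 53074 against 50358 to 55532. The overlap came from mKO non-RGC library C alone. Libraries A and B lay below every WT library in each family, as for Hnrnp genes at 38729 and 44318.

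**Figure D3:**
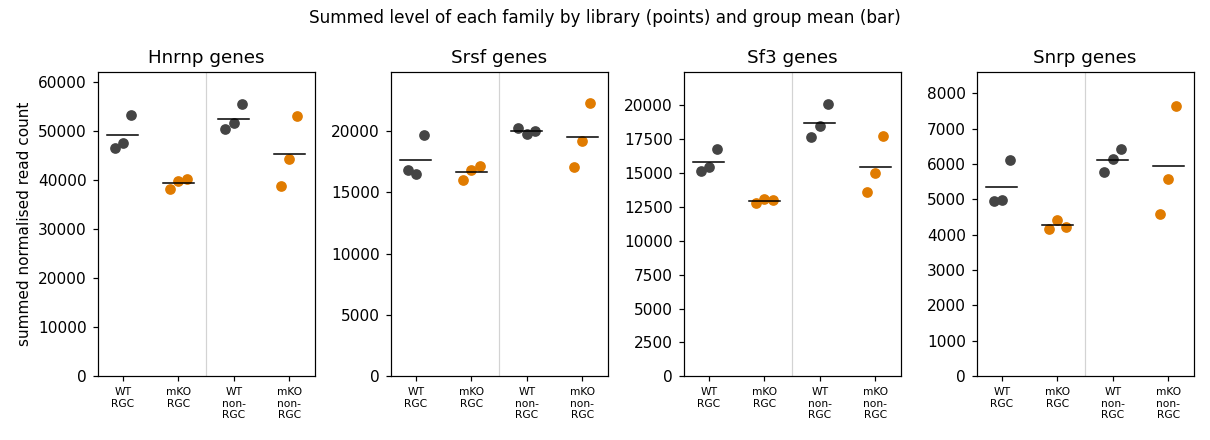
Summed normalised read count of each family (vertical axis, from 0) in each library (points) with the group mean (bar). RGC and non-RGC libraries were scaled separately. The third mKO non-RGC point is library C, which was the highest of its group in each family.

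The size of the fall ran with base composition. Across the 50 members, the log2 fold change in RGCs and the exons' GC content had a Pearson's r of -0.63 and a Spearman's rho of -0.63, and over 15900 genes tested the rho was -0.63. Genes within a library are not independent, and this is given as a description. Of the 25 members with the lower GC content (37.3% to 45.2%), 7 fell, with a median log2 fold change of -0.11. Of the 25 with the higher GC content (45.4% to 61.6%), 20 fell, with a median of -0.42. With the GC trend of each library removed the order turned, at 20 of the lower and 15 of the higher GC members (Pearson's r of 0.42), and with the trend on reads per base removed as well 11 and 5 fell (r of 0.13). The median GC content of members was 45.3%, below the 49.5% of genes tested. With GC alone removed, 35 members fell and none rose, beside 11% of all genes that fell. With both trends removed (reads per base of exon being a measure of level), 16 fell and none rose, beside 4.43%. The 16 were 11 hnRNPs, 2 Sf3 genes, 3 Snrp genes and no SR protein, and 12 of them were among the 27 above (44.4% of the 27 and 75% of the 16). Of the 8 members with the largest falls, 3 kept the call. Sf3b5 then had a log2 fold change of -1.04 ± 0.12 (adjusted p = 0.01), Hnrnpf of -0.60 ± 0.11 (adjusted p = 0.0263) and Snrpd2 of -0.55 ± 0.11 (adjusted p = 0.0387). The other 5 did not pass. Sf3a2, the member with the highest GC content (61.6%), came to -0.12 ± 0.09 (adjusted p = 0.455), Hnrnpa0 to -0.17 ± 0.06 (adjusted p = 0.144), Snrpb to -0.23 ± 0.08 (adjusted p = 0.138), Sf3b4 to -0.26 ± 0.10 (adjusted p = 0.162) and Hnrnpl to -0.18 ± 0.07 (adjusted p = 0.157). Sf3a1 came to 0.02 ± 0.04 (adjusted p = 0.842) and Sf3b2 to -0.18 ± 0.05 (adjusted p = 0.069). Srsf10, among those with the lowest (37.8%), came to 0.03 ± 0.06 (adjusted p = 0.812), and to -0.19 with GC alone removed. Hnrnpr came to -0.41 ± 0.06 (adjusted p = 0.0158). The count of 16 came to 0 when any 1 mKO RGC library was left out, beside at most 0.0063% of all genes lower, and to 0 without WT RGC library B, beside 0.302%. It was 7 without WT RGC library A, beside 1.12%, and 24 without library C, beside 13.2%. The median log2 fold change of the members was -0.21 with all libraries and from -0.26 to -0.15 in these 6 fits.

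**Figure D4:**
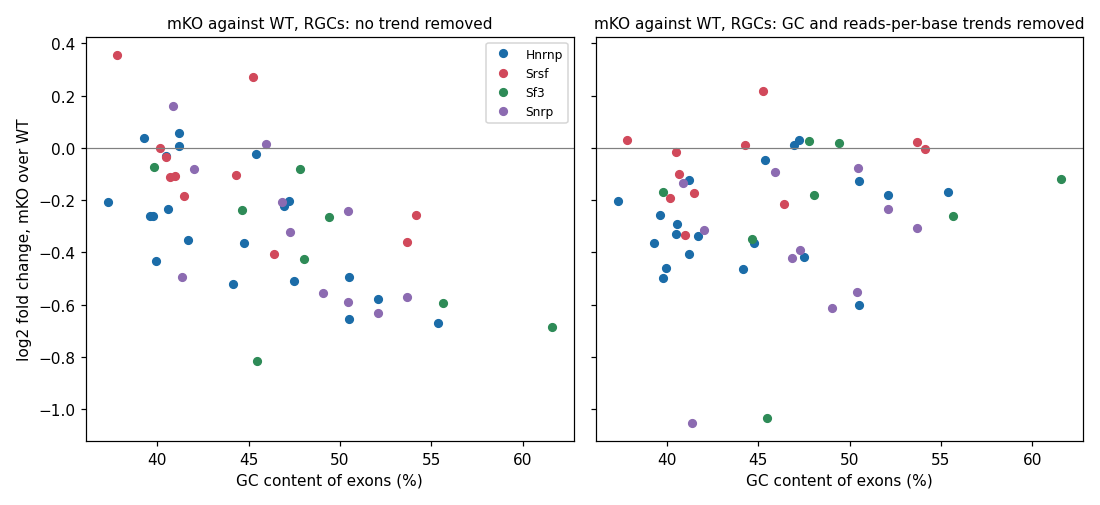
Log2 fold change of mKO over WT in RGCs (vertical axis) against the GC content of the exons in percent (horizontal axis) for the 50 members, before (left) and after (right) the trends on GC and on reads per base were removed. Before removal the points descend with GC content (Pearson's r of -0.63), and after it r was 0.13.

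In non-RGCs, 2 members fell and none rose among 50, beside 6.43% of 15326 genes that fell and 4.18% that rose. The median log2 fold change of members was -0.17, beside -0.026 over all genes. It was -0.041 without mKO non-RGC library A and -0.296 without library C. Hnrnpf was read at 357, 385 and 436 in mKO and 568, 606 and 597 in WT (log2 fold change -0.59 ± 0.14, adjusted p = 0.0319). Hnrnpul1, an hnRNP U-like protein, was read at 2245, 2574 and 2745 in mKO and 3257, 3551 and 4176 in WT (log2 fold change -0.54 ± 0.13, adjusted p = 0.0316). For both genes the groups were apart.

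All mKO non-RGC libraries were below all WT non-RGC libraries for 11 members and above them for 1 (Srsf10), beside 19.2% and 17.5% of all genes. At 1.5-fold and an unadjusted p under 0.05, 1 member fell, beside 6.79%. Without mKO non-RGC library C, 10 members fell, beside 7.39% of all genes, and all 10 were among the 27 of RGCs. Without WT library A or C 1 fell, and without WT library B or mKO library A or B none did. With the GC trend removed no member passed, beside 1.04% of all genes that fell, and with both trends removed none passed, beside 0.95%. At an unadjusted p under 0.05, 16 and 8 members passed in these fits, with no share over all genes to set beside them. With 1.5-fold required as well, 1 member fell with the GC trend removed, beside 3.83% of all genes. With both trends removed none did, beside 5.14%. The smallest differences among well-read members were those of Srsf5 (1473, 1808 and 2131 in mKO, 1962, 1657 and 1743 in WT), Hnrnph2 (814, 892 and 1017 in mKO, 837, 902 and 967 in WT) and Srsf11 (2262, 2457 and 2915 in mKO, 2649.9, 2618 and 2301 in WT). In each of them the groups overlapped.

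Whether the mKO against WT change differed between RGCs and non-RGCs was tested by an interaction term over all 12 libraries. No member passed in limma, beside 0.097% of 16502 genes called in either direction, and none passed with limma voom, beside 17 genes. None had an unadjusted p under 0.05 in limma, beside 1499 of the 16502 genes. The smallest adjusted p among members was 0.581. The members' difference (RGCs minus non-RGCs) had a median of -0.15 on the log2 scale, beside -0.02 over all genes. It was negative for 39 of 50 members, among them all 11 Snrp genes, with no share over all genes to set beside this. The members' median was -0.0038 without mKO non-RGC library C, -0.25 without mKO non-RGC library A and -0.084 without WT RGC library C, so its size rests on single libraries. The difference was -0.45, with a 95% interval from -1.01 to 0.11 for Snrpd2, -0.33, with a 95% interval from -0.84 to 0.18 for Sf3b5 and -0.06, with a 95% interval from -0.42 to 0.29 for Hnrnpf. The intervals hold 0 and differences as large as the changes themselves for Snrpd2 and Sf3b5, so the counts of 27 and 2 do not show that the fractions differed.

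Between the fractions of WT mice, 20 members were lower in RGCs than in non-RGCs and 1 was higher, beside 22.6% and 26.4% of 16502 genes. The median log2 fold change of RGCs over non-RGCs was -0.26. None of the 20 reached a fold change of 1.5, beside 14.7% of all genes lower at that fold and an unadjusted p under 0.05. Marker lists moved with this contrast: all 6 microglia genes were higher in WT RGCs (median log2 fold change 4.8), and 9 of 10 progenitor, 7 of 10 photoreceptor and 7 of 8 amacrine and horizontal genes were lower. Their part in the result was not tested. Without WT RGC library A or B 10 members were lower, beside 16.9% and 17.6% of all genes. Without WT non-RGC library C 11 were lower, beside 22.3%. The 20 were 6 hnRNPs, 7 SR proteins, 5 Sf3 genes and 2 Snrp genes. Sf3a3 had the largest of these differences, at -0.50 ± 0.14 (adjusted p = 0.0105), with 784, 810.1 and 975 in WT RGCs and 1099.7, 1142 and 1391 in WT non-RGCs on the scale shared by the 12 libraries. Sf3b3 followed at -0.46 ± 0.09 (adjusted p = 0.000697). In mKO mice the same contrast gave 34 members lower and 1 higher in RGCs, beside 25.4% and 29.1% of all genes. The 34 came to 21 without mKO non-RGC library C and 22 without mKO RGC library A, beside 22% and 20.2% of all genes. Without mKO non-RGC library A the count came to 42, beside 26.6%. Of the 20 members lower in WT, 16 were also lower in mKO (80% of the 20 and 47.1% of the 34), and 10 of 11 Snrp genes were lower in mKO against 2 in WT, a difference that the interaction term above did not call for any member.

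The 1 member higher in RGCs was Srsf12, an SR-related protein that opposes other SR proteins, named after its values were seen. On the shared scale it was read at 787, 797 and 448 in WT RGCs and 182, 190.2 and 103 in WT non-RGCs, and at 813, 792 and 793 and 210.1, 232 and 156 in those of mKO. Every RGC library lay above every non-RGC library. Its log2 fold change was 2.09 ± 0.26 (adjusted p = 2.39e-05) in WT and 2.02 ± 0.26 (adjusted p = 3.24e-05) in mKO, and library C was the lowest of its group in both WT groups. Its mKO against WT change in RGCs was 0.27 ± 0.20 and did not pass (adjusted p = 0.309).

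**Figure D5:**
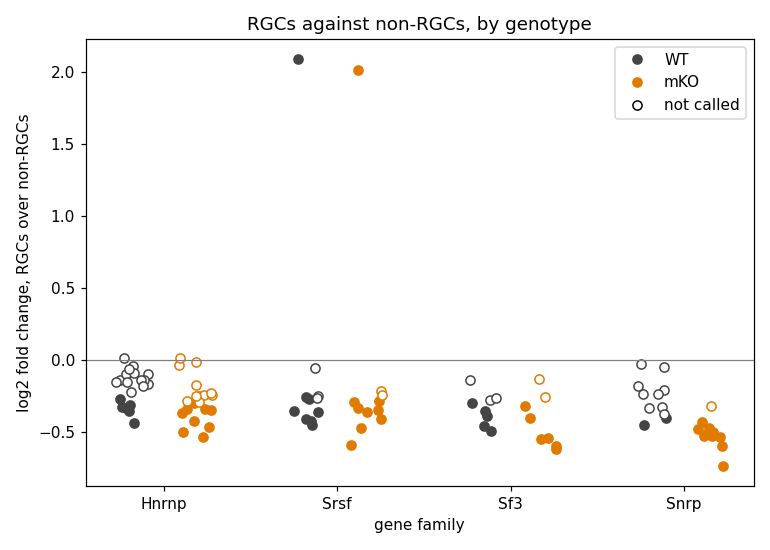
Log2 fold change of RGCs over non-RGCs (vertical axis) for the 50 members by family (horizontal axis) in WT and mKO libraries, filled at an adjusted p under 0.05. The point near 2 in each genotype is Srsf12, and 48 of the 50 members lie below 0 in each genotype.

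Other genes of the splicing machinery were read in 8 lists with 115 genes, of which 112 were tested. In mKO RGCs 35 of them fell and 14 rose, beside 21.2% and 16.3% of all genes. With both trends removed 9 fell and 2 rose, beside 4.43% and 2.11%. Of the U2 and branch point list, 6 of 10 fell (1 fell and 1 rose with both trends removed), among them U2af2 (-0.58 ± 0.08), which reads the polypyrimidine tract, and Sf1 (-0.57 ± 0.06), which first binds the branch point. Of the FET and hnRNP-like list, 7 of 10 fell (3 with both trends removed), among them the poly-C binding proteins Pcbp1 (-0.84 ± 0.07) and Pcbp2 (-0.72 ± 0.07), and Syncrip rose (0.38 ± 0.08). Of the snRNP-specific and tri-snRNP list, 3 of 16 fell and 2 rose, and Snrnp70 of the U1 snRNP had -0.43 ± 0.08. Of the helicases and Prp19 complex, 4 of 12 fell and 1 rose. Of LSm genes, 2 of 9 tested fell. Of SMN complex genes, which load the Sm ring, 3 of 11 tested fell and 2 rose, with Gemin2 at 0.51 ± 0.16. Of SR kinases and SR-related genes, 2 of 19 tested fell and 2 rose. The share that fell in each of these last 5 lists lay closer to that over all genes than in the first 2.

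The list of neuronal and tissue splicing regulators moved both ways, with 8 of 25 lower and 6 higher in mKO RGCs, beside 21.2% and 16.3% of all genes, and with both trends removed 2 were lower and none higher. Ptbp1, which represses neuronal exons, fell (-0.66 ± 0.15), as did Celf3 (-0.65 ± 0.08), and Nova1, a neuronal regulator, rose (0.59 ± 0.06). Between WT fractions 11 of the 25 were higher and 6 lower in RGCs, beside 26.4% and 22.6% of all genes. Rbfox3, the neuronal nuclear antigen NeuN, had a log2 fold change of RGCs over non-RGCs of 3.00 ± 0.15 and Elavl4 of 2.49 ± 0.17, while Ptbp1 had -0.63 ± 0.14.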

How the data were processed

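Members and gene lists were chosen with earlier results of these data known. The authors aligned single-end reads with STAR 2.3.1z4 to mm10 and counted them per gene with featureCounts. The deposited values are labelled primary and dedup, so duplicate reads appear to have been removed before counting. What this does to the members' values was not tested. Each deposited signal value is the mean, over the 3 libraries of a group, of counts scaled by size factors. The deposited fold changes, log2 fold changes and p-values are the authors' own comparison and were not used. Per-sample columns left unused numbered 0. Whole reads of each library were recovered as the combination of 3 steps that gives each mean, for 100% of genes with reads in 3 groups and 99.98% in WT non-RGCs, and for every member. Libraries could not be tied to replicate numbers. No count model was used.

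Values were log2(value + 1) of genes whose mean reached 10 in mKO or WT, tested with limma 3.58.1 (R 4.3.3, mean-variance trend) and Benjamini-Hochberg adjustment. Contrasts between fractions used all 12 libraries on shared median-of-ratios factors. Fold changes on this scale understate those of low genes. The fits were tested on simulated data. Alternatives were another pseudocount (0.5), other filters (none, or 50), total-read and upper-quartile scaling, limma voom and leaving out each library. Exon GC and length came from GENCODE M21. Levels per kilobase used the longest protein-coding transcript, although reads were counted over the exons of the whole gene. Each library's trend on GC was removed by lowess (span 0.3), and that on reads per base over 300 neighbours. Named members were, in each fraction, the 8 with the largest change among those called and the 3 with the smallest change at a mean of at least 500, plus the highest per kilobase of each family. Exons of Hnrnpf, Sf3a2, Sf3b2, Sf3b4, Hnrnpr and other members overlap genes on the opposite strand, and strand-specific counting is not given in the sources used here. Reads of members with pseudogene copies are uncertain.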

Additional observations from a re-analysis of the deposited data

How the results depend on the processing

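No paired analysis was possible because the recovered libraries carry no replicate numbers. In RGCs, 28 members were called (27 lower), and the count was 16 with the trends on GC and reads per base removed and 7 under the rule of 1.5-fold and an unadjusted p under 0.05. The count of 28 ran from 20 to 30 when 1 library was left out, beside 23.5% to 51% of all genes called. In non-RGCs, 2 were called. The count was 0 with the GC trend removed, 0 with both trends removed, 1 under scaling to total reads (Srsf10, higher), 1 under the 1.5-fold rule, and from 0 to 10 without 1 library. Between WT fractions, 21 were called. The count was 10 with the GC trend removed (9 lower, beside 23.4% of all genes lower) and 1 under the 1.5-fold rule (Srsf12, higher). It was 35 in the mKO libraries (chosen after seeing the data), beside 54.5% of all genes called. Without 1 library it ran from 11 to 27, beside 39.1% to 53.3%. For the interaction, no alternative called a member at an adjusted p under 0.05, and at 1.5-fold and an unadjusted p under 0.05 there was 1 (Snrpd2), without mKO non-RGC library A. Under the filter of 50, Snrpf was not tested. The 1.5-fold rule between fractions and for the interaction, and leaving out libraries after both trends were removed, were also chosen after seeing the data, and the latter gave 0 to 24 members in RGCs.

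Scaling to total reads moved the median log2 fold change of all genes from -0.0024 to 0.12 in RGCs and from -0.026 to 0.14 in non-RGCs. The median of members moved to -0.13 and 0.0016, and in RGCs 17 members fell and 2 rose, beside 13.9% and 23.9% of all genes. The 17 were all among the 27. Named members that reversed in RGCs included Hnrnpr, Srsf10 and Snrpa1. With the GC trend removed Hnrnpr came to -0.36 and Srsf10 to -0.19, and with both trends removed Hnrnpr came to -0.41. Snrpa1 turned negative in both of these fits, in which all 11 Snrp genes were negative. The cause was not tested. mKO non-RGC library C, the shallowest library and the highest of its group for 49 of 50 members, and 3 libraries a group limit what non-RGCs can show. The part of depth in that library's values was not tested.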
